A study of Mus musculus with 12 samples.

Results

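The p53 pathway genes described here were Trp53, the gene for p53 itself, and Cdkn1a, Mdm2, Ccng1, Trp53inp1, Phlda3, Zmat3, Fas and Aen, 8 genes known as its direct targets. They were picked by name as known p53 targets, at a time when earlier results of these data were known, and make up 9 of the 49671 genes in the deposited counts. All 9 were among the 18668 genes tested, those whose count exceeded 1 in 3 or more of 12 libraries. The libraries came from NIH 3T3, a fibroblast line that was established from mouse embryos, transfected with a negative control siRNA or with 1 siRNA directed at every isoform of Lap2, a family of lamina-associated proteins encoded by Tmpo. Each siRNA was combined with serum starvation in 0.3% FBS or with starvation followed by 45 min of 15% FBS, which gave 4 groups of 3 libraries. All 4 groups were thus transfected and starved before RNA was taken. With 1 cell line and 1 siRNA against Lap2, loss of Lap2 and any other action of that siRNA cannot be told apart. The labels do not say whether the 3 libraries of a group came from separate cultures, so p-values measure the spread between these libraries, which may be technical.

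p53 is a transcription factor that is kept at a low level by Mdm2, a ubiquitin ligase whose gene p53 itself activates, so that the pair form a negative feedback loop. DNA damage and other stresses stabilise the protein, which then binds paired half-sites in DNA and switches on genes for growth arrest, DNA repair and cell death. Several of its targets, among them Cdkn1a, also answer to growth factors without p53, and NIH 3T3 cells are known to lack the Cdkn2a locus, whose Arf product restrains Mdm2.

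Sequence around the annotated starts of transcription is shown for the binding motif of p53. The search was chosen after expression values had been seen, and the genes were picked as direct targets of p53, so the shares of windows with a match are a description and no independent support. RefSeq windows of 300 bases, from 250 bases upstream to 50 downstream (GRCm38.p6), were at hand for 7 of the 9 genes, in 9 windows because Cdkn1a and Aen have 2 starts each. Trp53inp1 and Zmat3 had no window. The p53 half-site consensus, a palindrome of 10 bases that reads alike on both strands, occurred without mismatch in 6 of the 9 windows, in 5 genes, against 8.36% of 32851 windows of all genes. A pair of adjacent half-sites with at most 2 mismatches in 20 bases occurred in the windows of Cdkn1a and Ccng1, against 0.798% of all windows. The pair of Cdkn1a lay at chr17:29090928-29090947, from 51 to 32 bases upstream of the first annotated start and 2841 bases upstream of the second. That of Ccng1 lay at chr11:40755462-40755481, from 195 to 176 bases upstream of its start. Each pair had 1 mismatch. The 250 bases upstream of these starts are printed 5′ to 3′ on the strand of the gene, with the pair in capitals, because they hold the only paired sites found in the windows.
Cdkn1a, chr17:29090729-29090978, plus strand: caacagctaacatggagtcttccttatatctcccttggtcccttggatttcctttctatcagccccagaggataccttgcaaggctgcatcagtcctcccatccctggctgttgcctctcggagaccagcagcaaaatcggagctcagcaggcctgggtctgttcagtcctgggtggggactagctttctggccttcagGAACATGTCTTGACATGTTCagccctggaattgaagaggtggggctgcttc
Ccng1, chr11:40755287-40755536, minus strand: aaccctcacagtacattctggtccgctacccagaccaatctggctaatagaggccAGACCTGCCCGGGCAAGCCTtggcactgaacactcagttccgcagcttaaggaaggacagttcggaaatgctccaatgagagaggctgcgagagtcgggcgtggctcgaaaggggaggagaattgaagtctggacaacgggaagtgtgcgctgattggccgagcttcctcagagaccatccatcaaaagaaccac

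Single half-sites were GGACTTGCCC in Trp53, 75 to 66 bases upstream of the start (chr11:69580284-69580293, plus strand), GAACTTGCCT in Mdm2, 186 to 177 bases upstream (chr10:117710935-117710944, minus strand), and GGGCTTGTCC in Aen (chr7:78895937-78895946, plus strand), which lay 10 bases after the first start and 121 bases before the second. Cdkn1a had a further one, GGACTAGCTT, 73 bases upstream of its first start. No half-site without mismatch was found in the windows of Phlda3, Fas or the second start of Cdkn1a. These matches are to letters only, and no binding was measured in these data.

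**Figure D1:**
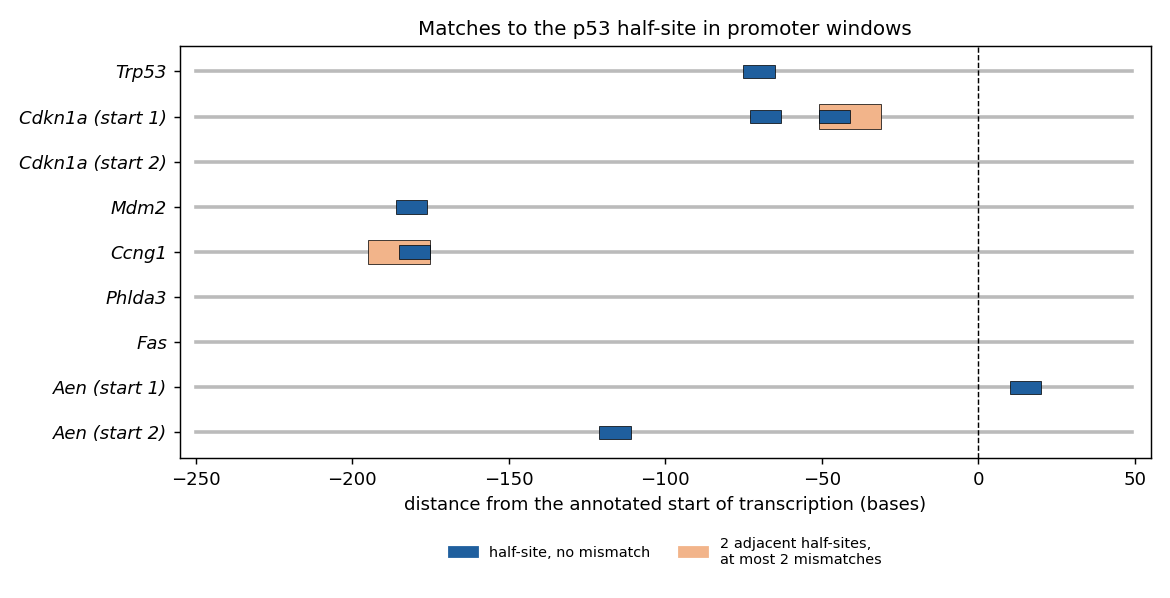
Matches to the p53 half-site in the 9 promoter windows, by distance in bases from the annotated start of transcription (dashed line). Blue bars are half-sites without mismatch, and the wider orange bars, seen only for Cdkn1a and Ccng1, are 2 adjacent half-sites with at most 2 mismatches.

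Values are normalised read counts, the counts of a library divided by its TMM-scaled size and multiplied by the mean scaled size over libraries, and SE is the standard error of a log2FC. Libraries held 18026298 to 26265253 counts (median 20710185.5). Replicate 1 of the Lap2-depleted cells in 0.3% FBS stood apart from the other replicates of its group, with a chi-square per degree of freedom of 18.98 and 20.2 against them, where the other pairs within groups had 2.57 to 7.62. Results for the 9 genes that rest on this group are given without it where that changed a call. For the wider lists, changed counts are given in part, and not every gene whose call changed is named. Beyond those named below for single genes, no other call of the 9 genes changed without this replicate. Tmpo, the siRNA target, had 2775, 2805 and 2885 normalised read counts with control siRNA in 0.3% FBS, against 982, 1176 and 1093 with Lap2 siRNA (log2FC -1.38). After serum stimulation it had 3264, 3243 and 3019 against 767, 745 and 607 (log2FC -2.17). All 8 fibroblast markers examined were above 100 normalised read counts in every group. Their summed level was lower in Lap2-depleted cells, at 505060 to 610470 against 801930 to 832780 in 0.3% FBS and 610480 to 678860 against 854500 to 939790 in 15% FBS. The markers did not move together: in 0.3% FBS 5 were called lower, led by the collagen gene Col3a1 (log2FC -1.67), and 2 higher, the fibronectin gene Fn1 (0.37) and S100a4 (0.46), and in 15% FBS 6 were lower and 0 higher. Of all tested genes, 18.6% were called lower and 17.8% higher in 0.3% FBS, and 12.1% and 11.4% in 15% FBS. With the other scalings, or without the replicate that stood apart, 3 were higher and 4 lower in 0.3% FBS, and in 15% FBS 2 were higher with total counts or without that replicate. Total counts called 4692 of all genes higher and 2638 lower in 0.3% FBS, and 3471 and 1678 in 15% FBS. Without that replicate, 3588 were higher and 3431 lower in 0.3% FBS, and 2431 and 2746 in 15% FBS. Markers of epithelial, endothelial and leukocyte cells summed to at most 23.4, 18.8 and 53.9. In bulk RNA, fewer cells of a kind and less RNA per cell cannot be told apart.

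The p53 pathway genes did not move as a block (plot of fold changes). Serum stimulation raised Cdkn1a, Mdm2 and Fas and lowered Trp53inp1 with either siRNA under each of the 4 scalings tried (TMM, DESeq2 size factors, total counts and upper quartile). Lap2 siRNA lowered Ccng1, Zmat3 and Fas and raised Trp53 in both serum conditions, while Cdkn1a and Mdm2, the targets most often read as a gauge of p53, did not pass the test in either with all libraries and TMM scaling.

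With control siRNA, serum stimulation raised 6 of the 9 genes and lowered 1 in edgeR's quasi-likelihood test with an adjusted p under 0.05, against 15.6% of all tested genes higher and 13.9% lower. Their median log2FC was 0.23, and that of all tested genes -0.01. With Lap2 siRNA, 5 rose and 2 fell, against 18.3% higher and 14.9% lower, with a median of 0.25 beside 0.00 for all genes. Without replicate 1 of the starved Lap2-depleted cells, 4 rose and 4 fell, against 3402 and 3064 of all 18434 genes then tested. The smaller serum responses depended on the scaling: with libraries scaled to total counts, the median of all genes moved to -0.22 with control siRNA and -0.23 with Lap2 siRNA, and rises of Phlda3 and Zmat3 with control siRNA and of Aen with Lap2 siRNA were no longer called. Calls over all genes then split into 1632 higher and 5847 lower in control cells and 1658 and 5951 in Lap2-depleted cells, against 2915 and 2597, and 3420 and 2777, with TMM. Of the 9 genes, 4 were then called higher and 3 lower in control cells, against 4 and 4 in Lap2-depleted cells.

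In 0.3% FBS, Lap2 siRNA raised 2 of the 9 genes and lowered 4, against 17.8% of all tested genes higher and 18.6% lower, with a median log2FC of -0.14 beside 0.01 for all genes. The same numbers, 2 and 4, were called without the replicate that stood apart, against 3588 and 3431 of all 18434 genes then tested. In 15% FBS, 1 rose and 3 fell, against 11.4% higher and 12.1% lower, with a median of -0.15 beside 0.02 for all genes. Scaling to total counts moved the median of all genes to 0.12 in 0.3% FBS and 0.10 in 15% FBS, and split all calls into 4692 higher and 2638 lower, and 3471 and 1678, against 3330 and 3480, and 2125 and 2250, with TMM. The 9 genes then gave 3 higher and 4 lower in 0.3% FBS and 1 and 3 in 15% FBS. The interaction, the serum response with Lap2 siRNA less that with control siRNA, was called negative for 3 genes and positive for 0, against 6.51% of all genes more negative and 7.09% more positive. Without the replicate that stood apart, it was negative for 3 and positive for 1, against 1973 and 1556 of all 18434 genes then tested. Comparisons within this design share libraries, for example the starved control siRNA treated cells, and are not independent of each other.

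**Figure D2:**
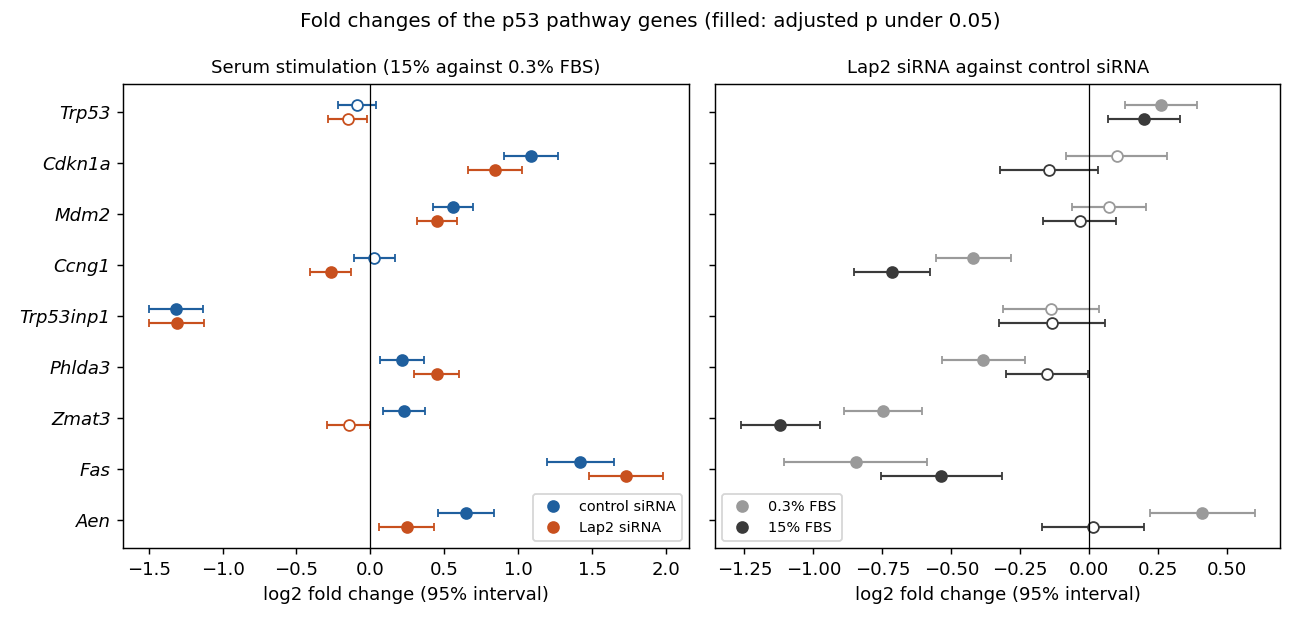
log2FC of the 9 p53 pathway genes with 95% intervals, for serum stimulation with each siRNA (left) and for Lap2 siRNA in each serum condition (right). Filled points passed an edgeR adjusted p under 0.05. In the left panel Fas and Cdkn1a lie farthest to the right and Trp53inp1 farthest to the left. In the right panel Zmat3, Fas and Ccng1 lie farthest to the left, while Trp53 lies to the right of 0 in both conditions.

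Trp53 (ENSMUSG00000059552, chr11:69580359-69591873, mm10) encodes p53. With control siRNA it had 3166, 2841 and 2728 normalised read counts when starved and 2778, 2822 and 2597 when stimulated. With Lap2 siRNA the libraries had 3507, 3436 and 3526 in 0.3% FBS, and 3173, 3162 and 3075 after stimulation. Every library of Lap2-depleted cells was above every control library of the same serum condition. The log2FC was 0.26 in 0.3% FBS (edgeR adjusted p = 0.0012, SE 0.06) and 0.20 in 15% FBS (edgeR adjusted p = 0.021, SE 0.06). The latter was no longer called in 4 of 12 fits that each left out 1 library: those without control siRNA 15% FBS replicate 1 (adjusted p = 0.061) or 3 (0.099) and without Lap2 siRNA 15% FBS replicate 1 (0.069) or 2 (0.07). A serum response did not pass the test, with log2FC of -0.09 (95% interval -0.22 to 0.04) in control siRNA treated cells and -0.15 (-0.28 to -0.02, edgeR adjusted p = 0.062) in Lap2-depleted cells, where the groups did not overlap. With upper-quartile normalization both were called lower (log2FC -0.19 and -0.26), as with scaling to total counts (-0.30 and -0.38), and DESeq2 called the second (-0.17, adjusted p = 0.017). The second was also called lower without the replicate that stood apart (-0.17, edgeR adjusted p = 0.027), with filterByExpr (-0.16, edgeR adjusted p = 0.031) and without control siRNA 0.3% FBS replicate 1, 2 or 3 (edgeR adjusted p = 0.025, 0.043 and 0.038).

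Mdm2 (ENSMUSG00000020184, chr10:117688875-117710758), the ubiquitin ligase that marks p53 for degradation, rose with serum. With control siRNA its libraries had 1580, 1524 and 1493 normalised read counts when starved and 2400.2, 2224 and 2143 when stimulated. With Lap2 siRNA they had 1649, 1637 and 1547 when starved and 2136, 2185 and 2285 when stimulated. Starved and stimulated libraries did not overlap with either siRNA, whereas those of the 2 siRNAs overlapped in 0.3% and in 15% FBS. The serum response was 0.56 on the log2 scale with control siRNA (edgeR adjusted p = 1.8e-08, SE 0.07) and 0.45 with Lap2 siRNA (edgeR adjusted p = 1.1e-06, SE 0.07). For Lap2 siRNA the intervals were narrow: log2FC 0.07 (95% interval -0.06 to 0.21) in 0.3% FBS and -0.04 (-0.17 to 0.10) in 15% FBS. With scaling to total counts, the former was called higher (0.18, edgeR adjusted p = 0.03).

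Cdkn1a (ENSMUSG00000023067, chr17:29090976-29100727) encodes p21, an inhibitor of cyclin-dependent kinases, and carries the paired half-sites printed above. With control siRNA it had 2106, 1908 and 1811 normalised read counts in 0.3% FBS and 4228, 4113 and 4024 in 15% FBS. With Lap2 siRNA it had 2058, 2038 and 2149 in 0.3% FBS and 3212, 3315 and 4639.5 in 15% FBS. Replicate 3 of the stimulated Lap2-depleted cells lay above all other libraries, and the remaining 2 lay below all stimulated control libraries. Serum raised Cdkn1a 2.12-fold with control siRNA (log2FC 1.09, edgeR adjusted p = 6.4e-12, SE 0.09) and 1.79-fold with Lap2 siRNA (log2FC 0.84, edgeR adjusted p = 2.6e-09, SE 0.09). The effect of Lap2 siRNA did not pass the test in 0.3% FBS (log2FC 0.10, 95% interval -0.08 to 0.28) or in 15% FBS (-0.15, -0.32 to 0.03), nor did the interaction (-0.25, edgeR adjusted p = 0.22). That outcome in 15% FBS rested on replicate 3: without it, the log2FC in 15% FBS was -0.35 (edgeR adjusted p = 4.5e-04) and the interaction -0.44 (edgeR adjusted p = 0.0013). A gene of unknown status, AC167363.2, overlaps 7.68% of the exonic bases of Cdkn1a on the opposite strand, and whether the counting used strand is not given in the sources used here.

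Ccng1 (ENSMUSG00000020326, chr11:40748552-40755311), the second gene with paired half-sites, encodes cyclin G1, which binds a phosphatase that acts on Mdm2. With control siRNA its normalised read counts were 5398, 5719 and 5710.3 in 0.3% FBS and 5939, 5957 and 5246 in 15% FBS. In Lap2-depleted cells they were 4349, 4069.5 and 4152 in 0.3% FBS and 3240.1, 3375 and 3819 in 15% FBS. Every Lap2-depleted library was below every control library. Lap2 siRNA lowered Ccng1 to 0.747 of control in 0.3% FBS (log2FC -0.42, edgeR adjusted p = 4.6e-06, SE 0.07) and to 0.609 in 15% FBS (log2FC -0.72, edgeR adjusted p = 5.3e-10, SE 0.07). Serum lowered it in Lap2-depleted cells (log2FC -0.27, edgeR adjusted p = 0.0019), while with control siRNA the groups overlapped (0.03, 95% interval -0.11 to 0.16, but -0.18 and called lower with scaling to total counts).

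**Figure D3:**
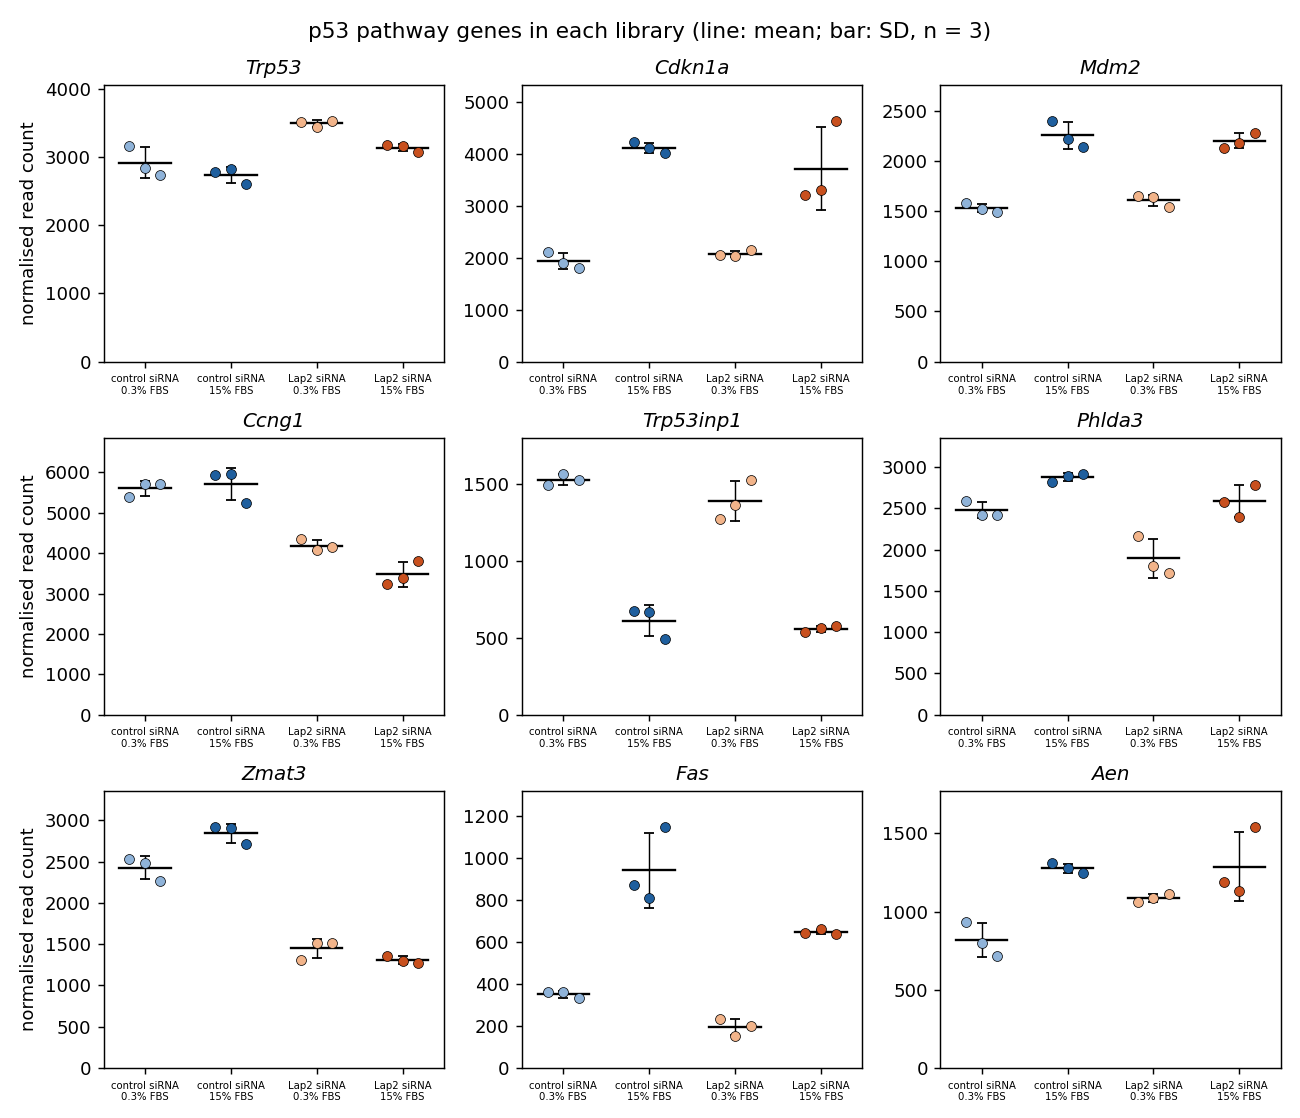
Normalised read counts of the 9 genes in each of the 12 libraries, each panel with its own axis from 0, with group means (lines) and SD (bars, n = 3). Zmat3 and Ccng1 separate by siRNA, Cdkn1a, Mdm2 and Trp53inp1 separate by serum, and Fas separates by both; 1 of the 3 stimulated Lap2-depleted libraries lies above the others for Cdkn1a and Aen.

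Fas (ENSMUSG00000024778, chr19:34290666-34327772), the death receptor of the extrinsic apoptosis pathway, was the member with the largest serum response. With control siRNA it had 361, 360.4 and 332 normalised read counts in 0.3% FBS, which became 872, 809 and 1148 in 15% FBS. With Lap2 siRNA it had 231, 153 and 199.8 in 0.3% FBS, which became 646, 661 and 641 in 15% FBS. The 4 groups did not overlap, and stimulated Lap2-depleted cells lay between the starved and the stimulated control cells. Serum raised Fas 2.68-fold with control siRNA (log2FC 1.42, edgeR adjusted p = 2.4e-12, SE 0.11) and 3.32-fold with Lap2 siRNA (log2FC 1.73, edgeR adjusted p = 1.9e-13, SE 0.12). Fas was lower with Lap2 siRNA in 0.3% FBS (log2FC -0.85, edgeR adjusted p = 1.7e-06, SE 0.13, and -0.98 without the replicate that stood apart) and in 15% FBS (log2FC -0.54, edgeR adjusted p = 2.6e-04, SE 0.11). The difference between its serum responses was not called (0.31, edgeR adjusted p = 0.25). Without control siRNA 15% FBS replicate 3, the highest library, it was 0.48 (edgeR adjusted p = 0.041). An intronic RNA gene on the same strand, Gm27818, shared no exonic bases with Fas and had at most 4 counts in a library.

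Trp53inp1 (ENSMUSG00000028211, chr4:11156431-11174379), whose product promotes p53-driven cell death and autophagy, went the other way with serum. With control siRNA it fell from 1494, 1565 and 1525 normalised read counts to 676, 667 and 494, and with Lap2 siRNA from 1273, 1364 and 1529 to 538, 564 and 577. All stimulated libraries were below all starved libraries. The log2FC was -1.31 with either siRNA (edgeR adjusted p = 5.4e-14 in control and 1.2e-13 in Lap2-depleted cells), and the difference between the responses was 0.01 (95% interval -0.25 to 0.27). Lap2 siRNA gave log2FC of -0.14 (edgeR adjusted p = 0.22) in 0.3% FBS and -0.13 (edgeR adjusted p = 0.36) in 15% FBS. The latter became -0.26 (edgeR adjusted p = 0.035) without control siRNA 15% FBS replicate 3.

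Phlda3 (ENSMUSG00000041801, chr1:135766119-135769136) encodes an inhibitor of Akt. With control siRNA it had 2589.9, 2425 and 2415 normalised read counts in 0.3% FBS and 2821, 2895 and 2914 in 15% FBS, with Lap2 siRNA 2162, 1807 and 1720.2 in 0.3% FBS and 2578, 2394 and 2787 in 15% FBS. Starved Lap2-depleted cells were lowest, and no pair of groups that differ in only 1 factor overlapped. Lap2 siRNA lowered Phlda3 in 0.3% FBS (log2FC -0.38, edgeR adjusted p = 7.9e-05, SE 0.07, and -0.47 without the replicate that stood apart). In 15% FBS the log2FC of -0.15 was not called (edgeR adjusted p = 0.14), but a fit of only the 2 groups compared called it (-0.16, adjusted p = 0.031), as did that without the replicate that stood apart (-0.16, edgeR adjusted p = 0.022). Serum raised it with control siRNA by 0.22 (edgeR adjusted p = 0.023), which was lost without replicate 2 or 3 of the control siRNA 0.3% FBS or 15% FBS libraries (edgeR adjusted p from 0.055 to 0.07) and with upper-quartile normalization (0.12), and with Lap2 siRNA by 0.45 (edgeR adjusted p = 1e-05). The interaction was 0.23 (edgeR adjusted p = 0.16), and 0.31 (edgeR adjusted p = 0.0065) without the replicate that stood apart.

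Aen (ENSMUSG00000030609, chr7:78895854-78911209), a nuclease that takes part in DNA breakdown during apoptosis, had, with control siRNA, 935, 796 and 718 normalised read counts in 0.3% FBS and 1308, 1275 and 1249 in 15% FBS. With Lap2 siRNA it had 1061, 1084 and 1114.5 in 0.3% FBS and 1191, 1134 and 1538 in 15% FBS. The starved control cells were below all others. Serum raised it by 0.64 on the log2 scale with control siRNA (edgeR adjusted p = 8.8e-07, SE 0.09) and by 0.25 with Lap2 siRNA (edgeR adjusted p = 0.035, SE 0.09), the latter falling to 0.09 (edgeR adjusted p = 0.52) without replicate 3 of the stimulated Lap2-depleted cells and to 0.22 (edgeR adjusted p = 0.064) without the replicate that stood apart. The call was also lost without control siRNA 0.3% FBS replicate 2 or Lap2 siRNA 0.3% FBS replicate 2 or 3, with DESeq2 and with upper-quartile normalization. Lap2 siRNA raised Aen in 0.3% FBS (log2FC 0.41, edgeR adjusted p = 5.6e-04, SE 0.09), and in 15% FBS the groups overlapped (0.01, 95% interval -0.17 to 0.20). The same replicate 3 was also the highest library for Cdkn1a.

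Zmat3 (ENSMUSG00000027663, chr3:32334792-32366014) encodes a zinc-finger protein that binds RNA and affects splicing. With control siRNA its libraries had 2536, 2483 and 2267 normalised read counts in 0.3% FBS and 2916, 2905 and 2709 in 15% FBS. In Lap2-depleted cells they had 1310.2, 1517 and 1515 in 0.3% FBS and 1362, 1292 and 1272 in 15% FBS. The highest Lap2-depleted library, at 1517, was below the lowest control library, at 2267. Lap2 siRNA lowered Zmat3 to 0.595 of control in 0.3% FBS (log2FC -0.75, edgeR adjusted p = 1.4e-10, SE 0.07) and to 0.46 in 15% FBS (log2FC -1.12, edgeR adjusted p = 5.3e-14, SE 0.07), the largest change by Lap2 siRNA among the 9 genes in 15% FBS. Serum raised it with control siRNA (0.23, edgeR adjusted p = 0.0098), a rise lost with scaling to total counts (0.02) and with upper-quartile normalization (0.13) and without control siRNA 0.3% FBS replicate 3 or 15% FBS replicate 1 (edgeR adjusted p = 0.064 and 0.05), and gave -0.15 (edgeR adjusted p = 0.12) with Lap2 siRNA, or -0.23 (edgeR adjusted p = 0.0047) without the replicate that stood apart. That response was also called lower with scaling to total counts (-0.38) and upper-quartile normalization (-0.26).

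The effect of Lap2 siRNA differed between serum conditions for Zmat3 (interaction -0.37, edgeR adjusted p = 0.0086, SE 0.10), Ccng1 (-0.30, edgeR adjusted p = 0.033, SE 0.09) and Aen (-0.40, edgeR adjusted p = 0.036, SE 0.13). For Zmat3 and Ccng1 the reduction was larger in 15% FBS, and for Aen the log2FC was 0.41 in 0.3% FBS and 0.01 in 15% FBS. Tmpo itself was reduced more in 15% FBS (log2FC -2.17) than in 0.3% FBS (-1.38), with a called interaction of -0.79. Serum condition and depth of the knockdown therefore cannot be told apart in these differences. Zmat3 kept its call in all 12 fits that left out a library (-0.47 to -0.35), while Ccng1 lost it in 5 (-0.25 at the smallest) and Aen in 7 (-0.31 at the smallest). Both lost it without replicate 1 or 2 of the stimulated cells of either siRNA, Ccng1 also without control siRNA 0.3% FBS replicate 1, and Aen also without control siRNA 0.3% FBS replicate 2 or 3 or 15% FBS replicate 3. The number of interactions called among the 9 genes fell to 1 without control siRNA 15% FBS replicate 1 or 2 or without Lap2 siRNA 15% FBS replicate 1 or 2.

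Exon length was taken over all annotated transcripts of a gene together, so the order below depends in part on the annotation. Per kilobase of exon, Ccng1 and Phlda3 were the most abundant of the 9 mRNAs in starved control cells, at 1597 and 1589 normalised read counts per kb, and their libraries overlapped. Trp53 followed at 720, Cdkn1a at 546.5, Mdm2 at 302, Trp53inp1 at 236 and Zmat3 at 212. Fas at 170.4 and Aen at 141 were the least abundant. Fas and Aen overlapped by a narrow margin, at 161.1 to 175.1 and 123.8 to 161.2, and the other neighbours in this order did not. After serum stimulation with control siRNA, Cdkn1a (1160 per kb) had passed Trp53 (676), Fas (457) had passed Mdm2 (444) with overlapping libraries, and Trp53inp1 (94.6) was last. In stimulated Lap2-depleted cells Phlda3 (1659) was first, and Cdkn1a (1048) and Ccng1 (990.4) came next with overlapping libraries.

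Profiles over the 12 libraries were compared by the root mean square distance between log2 CPM values centred on each gene's mean, as a description. Among the 9 genes, Mdm2 was nearest to Aen (0.17) and Phlda3 (0.21), Ccng1 was nearest to Zmat3 (0.23), and Fas and Trp53inp1 were farthest apart (1.498). Among 10448 other genes with a mean of at least 100 normalised read counts, Sympk (0.043), Hp1bp3 (0.052) and Cherp (0.053) were nearest to Trp53, Trim47 (0.087), Iffo2 and Ipo7 (0.10 each) to Cdkn1a, and Arpc2 (0.059), Lzts2 (0.060) and Rap1b (0.061) to Mdm2. The median distance of all these genes was 0.25 to Trp53, 0.53 to Cdkn1a and 0.32 to Mdm2. None of these neighbours was 1 of the 9 genes.

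A wider list of 38 p53 targets also held genes that moved in both directions. Of 37 tested (Perp was listed at 0 in every library), Lap2 siRNA raised 10 and lowered 10 in 0.3% FBS, with a median log2FC of -0.07, against 17.8% of all tested genes higher and 18.6% lower. In 15% FBS it raised 6 and lowered 10, with a median of -0.07, against 11.4% and 12.1%. Serum raised 10 and lowered 6 in control cells, against 15.6% and 13.9% of all genes, and raised 9 and lowered 10 in Lap2-depleted cells, against 18.3% and 14.9%. The interaction was called negative for 10 and positive for 4, with a median of -0.14, against 6.51% and 7.09% of all genes. With scaling to total counts these became 13 and 6 for Lap2 siRNA in 0.3% FBS, 8 and 9 in 15% FBS, and 8 and 13 for serum in control cells and 9 and 15 in Lap2-depleted cells. Calls over all genes shifted as well with that scaling. Lap2 siRNA then raised 4692 and lowered 2638 in 0.3% FBS, and raised 3471 and lowered 1678 in 15% FBS. Serum raised 1632 and lowered 5847 in control cells, and raised 1658 and lowered 5951 in Lap2-depleted cells. Without the replicate that stood apart, Lap2 siRNA raised 10 and lowered 9 in 0.3% FBS and raised 7 and lowered 12 in 15% FBS, serum raised 13 and lowered 6 in control cells and raised 10 and lowered 11 in Lap2-depleted cells, and the interaction was negative for 11 and positive for 6. Of all 18434 genes then tested, Lap2 siRNA raised 3588 and lowered 3431 in 0.3% FBS, and raised 2431 and lowered 2746 in 15% FBS. Serum raised 3482 of them and lowered 2861 in control cells, and raised 3402 and lowered 3064 in Lap2-depleted cells. Their interactions were negative for 1973 and positive for 1556.

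Among 7 arrest targets, the antiproliferative gene Btg2 had the largest serum response, with log2FC of 5.56 with control siRNA and 6.14 with Lap2 siRNA. The stress kinases Plk3 (4.73 and 4.07) and Plk2 (3.58 and 2.62) also rose. In 0.3% FBS, Lap2 siRNA raised Gadd45a, a growth arrest gene, by 0.92 (edgeR adjusted p = 1.7e-04), Plk3 by 0.65 and Plk2 by 0.19, and lowered Btg2 (-0.38). These 3 higher and 1 lower stood against 17.8% and 18.6% of all tested genes. Without the replicate that stood apart, they became 3 and 2, with Rprm added at a mean of 2.26 normalised read counts. Of all genes, 3588 then rose and 3431 fell. The serum response of Gadd45a in Lap2-depleted cells was then called as well (0.47, edgeR adjusted p = 0.041). In 15% FBS it lowered Gtse1, which moves p53 out of the nucleus (log2FC -1.51, edgeR adjusted p = 6.1e-09), and Plk2 (-0.78), and raised 0 of the 7 (1, Btg2, without the replicate that stood apart or with libraries scaled to total counts). Of all tested genes, 11.4% were called higher in 15% FBS and 12.1% lower. Scaling to total counts called 3471 higher and 1678 lower there, and the fit without that replicate 2431 and 2746. Interactions were called for 5 of the 7, 4 negative (Gtse1 -1.30, Gadd45a -0.99, Plk2 -0.97 and Plk3 -0.66) and 1 positive (Btg2, 0.58). Over all tested genes, 6.51% were called negative and 7.09% positive.

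Of 10 tested apoptosis targets, 4 rose and 5 fell with Lap2 siRNA in 0.3% FBS (4 and 3 with scaling to total counts, by which 4692 of all genes rose and 2638 fell), and 1 rose and 5 fell in 15% FBS. Of all tested genes, 17.8% rose and 18.6% fell in 0.3% FBS, and 11.4% and 12.1% in 15% FBS. The counts were also 4 and 5, and 1 and 5, without the replicate that stood apart. Of all genes, 3588 then rose and 3431 fell in 0.3% FBS, and 2431 and 2746 in 15% FBS. The receptor genes Tnfrsf10b and Eda2r, like Fas, were lower in both conditions, with log2FC of -0.38 and -0.32 in 0.3% FBS and of -1.003 and -1.07 in 15% FBS. For Eda2r the call in 0.3% FBS was lost with scaling to total counts (-0.21, edgeR adjusted p = 0.12). Bax, which permeabilises mitochondria, was higher in 0.3% FBS (0.49, edgeR adjusted p = 1e-04) and was not called in 15% FBS (0.03, edgeR adjusted p = 0.87). Bid, which links death receptors to mitochondria, was higher in both (0.59 and 0.87). Pidd1, a scaffold of caspase activation, was called in opposite directions, at 0.48 in 0.3% FBS and -0.48 in 15% FBS (interaction -0.96, edgeR adjusted p = 0.0021). Its call in 15% FBS was lost with scaling to total counts (-0.39, edgeR adjusted p = 0.074). Bbc3, the gene for Puma, fell with serum, with log2FC of -1.22 with control siRNA and -0.74 with Lap2 siRNA.

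Of 5 repair targets, Lap2 siRNA raised the damage sensor gene Xpc in both conditions (0.35 and 0.70) and lowered Ercc5 in 0.3% FBS (-0.21, a call not made by the other 3 scalings or without the replicate that stood apart) and Polk, a translesion polymerase gene, in 15% FBS (-0.49). Of 8 metabolism and stress targets, 1 rose and 1 fell in 0.3% FBS, against 17.8% and 18.6% of all tested genes. With the other scalings 2 or 3 rose and 0 fell, and without the replicate that stood apart 1 and 0. Over all genes, 3376 rose and 3272 fell with DESeq2, and 3499 and 3346 with upper-quartile normalization. Scaling to total counts gave 4692 and 2638, and the fit without that replicate 3588 and 3431. In 15% FBS 3 of the 8 rose and 0 fell, against 11.4% and 12.1% of all tested genes. Scaling to total counts gave 4 and 0 there, where 3471 of all genes rose and 1678 fell. Ddit4, an inhibitor of mTORC1 signalling, had the largest change of the 8, at 1.36 in 15% FBS (edgeR adjusted p = 7.7e-16). It had 2932, 2887 and 3403 normalised read counts in Lap2-depleted against 1194, 1244 and 1149 in control cells. Serum raised Ddit4 in Lap2-depleted cells (1.12), and its response with control siRNA was -0.11. Sesn1 and Dram1, genes of nutrient sensing and autophagy, were also higher in 15% FBS (0.44 and 0.40). Among 7 other targets, Dcxr, a sugar reductase gene, fell from 505, 457 and 549 to 96.4, 77.0 and 104 in 0.3% FBS (log2FC -2.44, edgeR adjusted p = 1.6e-16) and gave a log2FC of -2.35 in 15% FBS. Ephx1, an epoxide hydrolase gene, was lower in both (-0.47 and -0.64), and Ckap2 was higher in 0.3% FBS (0.72).

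Upstream of p53, 16 of 17 listed regulators were tested, and Cdkn2a was listed at 0 in every library. In 0.3% FBS Lap2 siRNA raised 7 and lowered 3, against 17.8% and 18.6% of all tested genes. The counts were 10 and 1 with scaling to total counts, by which 4692 of all genes rose and 2638 fell. They were 10 and 3 without the replicate that stood apart, when 3588 of all genes rose and 3431 fell. In 15% FBS Lap2 siRNA raised 1, the ubiquitin ligase gene Cop1 (0.21), and lowered 0, against 11.4% and 12.1% of all genes. With libraries scaled to total counts these were 3 and 0, where 3471 of all genes rose and 1678 fell. Without the replicate that stood apart they were 2 and 1, where 2431 of all genes rose and 2746 fell. Cop1 was called in the opposite direction in 0.3% FBS (-0.21, edgeR adjusted p = 0.012), with an interaction of 0.42 (edgeR adjusted p = 0.0017). Its call in 0.3% FBS was lost with scaling to total counts (-0.10, edgeR adjusted p = 0.26). The damage kinase genes Chek2 (0.99), Chek1 (0.80), Atm (0.74) and Atr (0.44) had the largest rises in 0.3% FBS among those with at least 100 normalised read counts. In 15% FBS their log2FC were 0.14, 0.02, 0.11 and 0.22, not called, and the interaction was called for Chek2 (-0.85), Chek1 (-0.78) and Atm (-0.64). Interactions of the regulators were called negative for 4 and positive for 1, against 6.51% and 7.09% of all tested genes. Over all 18434 genes tested without the replicate that stood apart, 1973 interactions were called negative and 1556 positive. The regulators then gave 10 and 1, and that of Atr was called as well (-0.37). The 15% FBS rise of Atr was then also called (0.21, edgeR adjusted p = 0.033). Mdm4, a partner of Mdm2, was higher in 0.3% FBS (0.34, edgeR adjusted p = 1.1e-04), in contrast to the 0.07 of Mdm2. Serum lowered Ppm1d, a phosphatase gene that opposes the damage kinases, with log2FC of -0.63 with control siRNA and -0.69 with Lap2 siRNA.

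Downstream of p21, 12 cell cycle genes that p53 is known to repress were examined beside Cdkn1a. In 0.3% FBS, Lap2 siRNA raised 11 of them and lowered 0 (median log2FC 0.88), against 17.8% and 18.6% of all tested genes (median 0.01), from 0.27 for Cdk1 to 1.43 for Mki67. Mki67, the gene for the proliferation marker Ki-67, had 2366, 2149.6 and 2189 normalised read counts in control cells and 5055, 6391 and 6561 in Lap2-depleted cells. In 15% FBS 3 were higher and 1, Cdk1 (-0.53), was lower (median 0.09), against 11.4% and 12.1%. With control siRNA the direction of the serum response depended on the scaling. TMM called 3 higher and 0 lower (median 0.03), against 15.6% and 13.9% of all tested genes. Upper-quartile normalization called 0 and 2, where 2183 of all genes rose and 3878 fell. Scaling to total counts called 0 and 4, where 1632 of all genes rose and 5847 fell. Serum lowered 11 with Lap2 siRNA (median -0.65), against 14.9% of all tested genes. The interaction was negative for 11 (median -0.71), against 6.51% of all tested genes. Without the replicate that stood apart the counts were 11 and 0 in 0.3% FBS, 11 lower for serum with Lap2 siRNA, and 10 negative interactions. Of all 18434 genes then tested, 3588 were higher and 3431 lower in 0.3% FBS. Serum with Lap2 siRNA lowered 3064 of them, and 1973 interactions were negative. E2f1, the gene for an activator of S phase genes, was not called in any comparison with TMM (0.19 for Lap2 siRNA in 0.3% FBS, edgeR adjusted p = 0.083). When libraries were scaled to total counts it was called higher there (0.30, edgeR adjusted p = 0.0047), and it was called lower for serum in Lap2-depleted cells with that scaling (-0.37) and with upper-quartile normalization (-0.25). These genes also mark cycling cells, and their rise with Lap2 siRNA in 0.3% FBS stood beside a lower sum of fibroblast markers. Of the 8 markers, 5 were called lower and 2, Fn1 and S100a4, higher, against 18.6% and 17.8% of all tested genes. Whether the rise of the cell cycle genes or the lower sum of markers had a part in the values of the 9 p53 pathway genes was not tested.

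**Figure D4:**
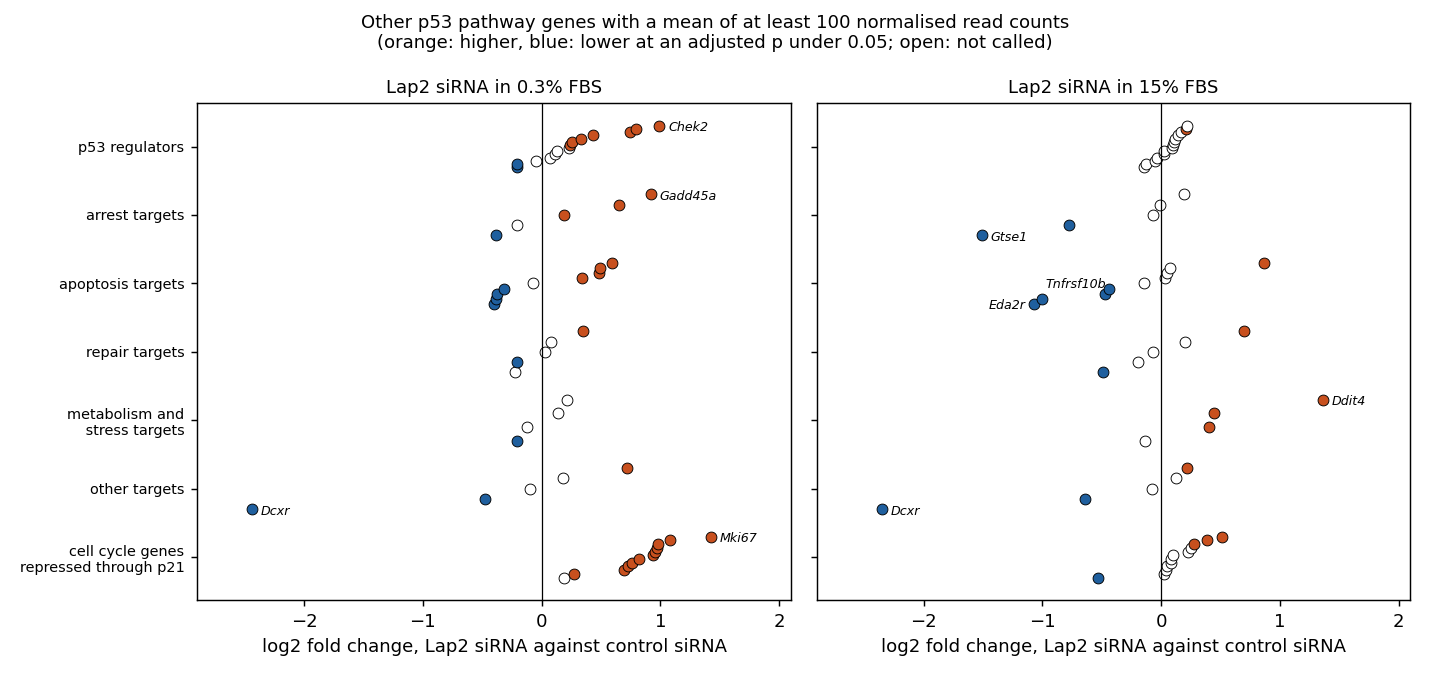
log2FC by Lap2 siRNA in 0.3% FBS (left) and 15% FBS (right) for genes of the wider pathway lists with a mean of at least 100 normalised read counts, 1 point per gene. Orange points were called higher and blue points lower (edgeR adjusted p under 0.05): 11 of 12 cell cycle genes were called higher on the left and 3 on the right, while the target lists hold points on both sides.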

How the data were processed

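Count tables of 12 RNA-seq libraries were used, in 4 groups of 3. Per the study's methods and processing notes, the authors aligned reads from ribosome-depleted, directional libraries to mm10 with TopHat2, and used HTSeq to make the deposited counts, which are raw reads per gene. Versions, annotation and the strand setting of the counting are not given in the sources used here. Symbols matched 99.3% of 49671 identifiers. Genes were tested with edgeR 4.0.16 in R 4.3.3 (TMM, glmQLFit and glmQLFTest on all 4 groups, Benjamini-Hochberg threshold 0.05) if their count exceeded 1 in 3 or more libraries, which 18668 did. The members and lists were chosen with earlier results of these data known. Genes were named by rule: all 9 members, Tmpo, from each wider list and comparison up to 4 genes with the largest log2FC among those called with a mean of at least 100 normalised read counts, every called gene of lists with at most 5 calls, and the 3 nearest profiles of Trp53, Cdkn1a and Mdm2. Not every gene that met this rule is printed. Positions and exon lengths came from GENCODE M21 (mm10), and 91.4% of the genes matched it in coordinates. Promoters came from RefSeq, and the motif search was chosen after expression values had been seen. Alternatives were DESeq2 1.42.0, scaling to total counts, upper-quartile normalization, filterByExpr, no filter, fits of only the 2 groups compared, a replicate block and leaving out each library. On simulated counts for Lap2 siRNA in 0.3% FBS (18668 genes), 93% of 200 genes with a log2FC of 1 were recovered and 11 others were called. The 200 genes were drawn only from those above a floor on the mean count. Smaller changes and a library that stands apart were not simulated. Library totals of 18026298 to 26265253 gave the members standard errors of 0.06 to 0.13 in single comparisons. Python 3.11.15, pandas 2.3.3, numpy 2.4.6 and matplotlib 3.10.9 were used for tables and figures.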

Additional observations from a re-analysis of the deposited data

Results flagged for a closer look

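The effect of Lap2 siRNA on 3 of the 9 genes differed between 0.3% and 15% FBS in edgeR's interaction test: Ccng1 (difference of log2FC -0.30), Zmat3 (-0.37) and Aen (-0.40). Ccng1 and Zmat3 were lower in all 6 Lap2-depleted libraries than in all 6 control libraries, and the differences lay in the size of the reduction. For Aen, Lap2-depleted cells were higher in 0.3% FBS, and the groups overlapped in 15% FBS. Tmpo, the siRNA target, was also reduced more in 15% FBS (interaction -0.79), so serum condition and depth of the knockdown cannot be told apart.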

How the results depend on the processing

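Calls of the 9 genes in the 5 comparisons were recomputed under each alternative. No log2FC changed its call without a filter on low counts (45 same) or with the replicate block (45 same), which left the number of interactions called at 3 and those by Lap2 siRNA at 6 in 0.3% FBS and 4 in 15% FBS. The replicate numbers did not pair the libraries: deviations of same-numbered libraries correlated at -0.12 to 0.099 (18 pairs, 10449 genes). With libraries scaled to total counts, 37 of 45 stayed the same and the serum response of Ccng1 with control siRNA reversed from 0.03 to -0.18. That scaling moved the median log2FC of all genes to -0.22 for serum with control siRNA, and the split of all genes to 1632 higher and 5847 lower for serum with control siRNA and to 4692 higher and 2638 lower for Lap2 siRNA in 0.3% FBS. DESeq2 kept 43 calls, filterByExpr 44 and upper-quartile normalization 39. Over the fits that each left out 1 library, interactions called among the 9 genes ranged from 1 to 4. With 18026298 counts or more per library, members had mean normalised read counts of 195 or more in every group, and 3 libraries per group allow no exact p below 0.1.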
